A study of Mus musculus with 12 samples.

Results

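Histone H3 trimethylated at lysine 36 (H3K36me3) outside annotated genes was described in C2C12, a line of mouse myoblasts whose cells fuse into myotubes when serum is withdrawn. The H3K36me3 peaks of myoblasts and myotubes on chromosomes 1 to 19 were merged across both lists where they lay within 1 kb of each other, which gave 45152 regions. Of these, 605 regions (1.34% of all regions, and 0.477% of their bases) lay over 5 kb from any gene annotated on the mm9 genome, and they covered 506958 bp. These intergenic regions were chosen by their H3K36me3 peaks, so their H3K36me3 levels and the list they came from are given as a description.

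The study profiled 6 histone marks by chromatin immunoprecipitation and sequencing (ChIP-seq), with 1 library per mark in each cell type, 12 in all. Cells of strain C3H, passages 15 to 18, were grown near confluence in 10% serum (myoblasts) or kept for 5 days without serum and freed of unfused cells by light trypsin treatment (myotubes). Nothing was replicated and no input control entered the comparisons, so every difference below compares 2 libraries and not the conditions, and no p-value was computed. The libraries held 1858771 to 7033100 uniquely aligned reads, and the myoblast H3K27ac library was the smallest.

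H3K36me3 is placed by SETD2, a methyltransferase that travels with elongating RNA polymerase II, and so it marks the bodies of transcribed genes and rises toward their 3' ends. H3K4me3 marks promoters, H3K4me1 with H3K27ac marks active enhancers, and H3K27me3 marks Polycomb-repressed chromatin. A stretch of H3K36me3 that starts at an H3K4me3 peak is the chromatin pattern by which many long intergenic noncoding RNAs were first found, and the primary transcripts of microRNAs (miRNAs) carry it too.

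The cells were as labelled by their marker genes. H3K4me3 at the start was at least 2-fold higher in myotubes for 9 of 10 myotube markers and at least 2-fold lower for 7 of 8 genes of dividing myoblasts, and for H3K36me3 over the gene body these counts were 7 of 10 and 8 of 8. Over 6 genes of other lineages the median H3K36me3 was 0.486-fold the genome mean in myoblasts and 0.596-fold in myotubes. These lists were written with earlier results known.

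The DNA under 6 H3K4me3 peaks beside runs of intergenic H3K36me3 is shown because the runs described below are read from these peaks. Of these peaks, 5 lay at a run's end, and that between Dyrk2 and Cand1 lay 3687 bp past one. Each sequence is the 300 bp of a peak with the most H3K4me3 reads, read 5' to 3' on the plus strand of mm9. Capitals mark CAGCTG, an E-box of the form that myogenic transcription factors of the MyoD family bind, and the GC box GGGCGG on either strand.
Mir31 to Gm12603, peak nearer Mir31, chr4:88583737-88584036: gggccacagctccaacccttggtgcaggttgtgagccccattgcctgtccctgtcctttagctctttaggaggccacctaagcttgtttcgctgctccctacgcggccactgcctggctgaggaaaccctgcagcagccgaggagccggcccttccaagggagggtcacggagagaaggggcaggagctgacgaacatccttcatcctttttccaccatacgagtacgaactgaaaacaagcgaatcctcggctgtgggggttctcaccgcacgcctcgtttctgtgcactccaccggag
Mir31 to Gm12603, peak farther from Mir31, chr4:88601823-88602122: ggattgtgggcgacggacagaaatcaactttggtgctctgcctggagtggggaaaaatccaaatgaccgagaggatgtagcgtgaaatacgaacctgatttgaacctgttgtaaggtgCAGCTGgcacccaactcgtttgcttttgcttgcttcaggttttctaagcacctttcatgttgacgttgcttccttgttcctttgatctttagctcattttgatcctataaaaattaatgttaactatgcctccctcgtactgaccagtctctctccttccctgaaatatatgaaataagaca
St3gal1 to Zfat, chr15:67008948-67009247: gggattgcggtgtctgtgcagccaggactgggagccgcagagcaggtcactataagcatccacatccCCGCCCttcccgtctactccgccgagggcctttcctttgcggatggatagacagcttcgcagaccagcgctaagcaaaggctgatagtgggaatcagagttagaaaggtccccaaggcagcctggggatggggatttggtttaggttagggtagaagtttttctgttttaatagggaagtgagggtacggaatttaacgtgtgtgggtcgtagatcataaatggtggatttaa
Dyrk2 to Cand1, chr10:118437271-118437570: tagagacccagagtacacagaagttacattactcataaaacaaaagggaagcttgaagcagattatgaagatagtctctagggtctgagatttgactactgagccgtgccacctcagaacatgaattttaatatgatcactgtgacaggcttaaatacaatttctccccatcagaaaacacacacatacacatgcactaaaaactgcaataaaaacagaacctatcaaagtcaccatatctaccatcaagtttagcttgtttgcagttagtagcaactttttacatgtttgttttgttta
U6 to U2, chr1:153097481-153097780: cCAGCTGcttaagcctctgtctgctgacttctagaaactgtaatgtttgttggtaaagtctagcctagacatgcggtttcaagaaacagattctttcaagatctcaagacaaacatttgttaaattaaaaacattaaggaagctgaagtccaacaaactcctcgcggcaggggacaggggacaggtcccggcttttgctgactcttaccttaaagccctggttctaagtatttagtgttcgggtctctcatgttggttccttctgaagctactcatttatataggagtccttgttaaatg
Sspn to Itpr2, chr6:145953875-145954174: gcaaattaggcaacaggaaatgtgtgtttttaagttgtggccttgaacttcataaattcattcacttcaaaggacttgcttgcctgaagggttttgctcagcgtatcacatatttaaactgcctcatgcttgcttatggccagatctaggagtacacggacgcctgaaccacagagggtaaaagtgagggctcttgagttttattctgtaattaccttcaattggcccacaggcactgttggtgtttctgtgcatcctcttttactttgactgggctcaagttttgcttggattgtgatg
CAGCTG stands in the farther Mir31 peak and in the U6 to U2 peak, and the GC box in the St3gal1 to Zfat peak, as CCGCCC. Of the 78 H3K4me3 peaks at the ends of intergenic runs, 23.1% held CAGCTG in such a window, beside 16.9% of all 17444 H3K4me3 peaks and 19.6% of the 2173 that lay over 5 kb from any gene. GGGCGG on either strand was in 5.13% of the run-end windows, beside 25.1% and 11.9%. A match describes these letters and is no evidence of binding. The run-end windows held a median of 4 CG dinucleotides, beside 9 over all peaks and 5 over the intergenic ones. Within the set shown, the nearer Mir31 peak held 15 CG dinucleotides and the Dyrk2 to Cand1 peak 1.

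Some of the runs lay beside miRNA genes, whose mature sequences are given from RefSeq with the seed, bases 2 to 8, in capitals, because the runs named after them turn on these genes.
mmu-miR-31-5p: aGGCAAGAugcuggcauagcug
mmu-let-7c-5p: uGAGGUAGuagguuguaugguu
mmu-let-7b-5p: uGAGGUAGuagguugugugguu
mmu-miR-206-3p: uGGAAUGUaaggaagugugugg
Let-7c and let-7b share a seed, and miR-31 and miR-206 have seeds of their own. MiR-206 is a muscle miRNA that rises in differentiation, and the let-7 family restrains growth genes.

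The intergenic regions were short and thinly covered. Their median length was 532 bp (range 171 to 19618), beside 1037 bp for the 42945 regions that overlapped a gene. They came from the myotube list alone for 313 regions, from the myoblast list alone for 212 and from both lists for 80 (13.2%), whereas 42.6% of the regions over genes were in both lists. The median region held 6 H3K36me3 reads in each library, so 417 of the 605 had under 20 reads in both libraries together and were left out of the calls between cell types. None of the 605 was at least 2-fold above the genome mean in all 12 libraries.

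The median H3K36me3 of the intergenic regions was 4.86-fold the genome mean in myoblasts (95% interval 4.25 to 5.31) and 6.29-fold in myotubes (5.75 to 6.77). Over regions in genes it was 7.35-fold (7.30 to 7.39) and 7.69-fold (7.64 to 7.74). Of the marks the rule did not use, H3K4me1 stood out. Its median was 1.91-fold in myoblasts (1.64 to 2.23) over intergenic regions and 1.11-fold (1.09 to 1.13) over genic ones, and 1.70-fold (1.53 to 1.95) against 1.31-fold (1.29 to 1.33) in myotubes. Set against the 200 kb around each region instead of the genome mean, H3K4me1 was 0.872-fold and 0.777-fold, so the median region was not above its surroundings. On that scale the medians of H3K4me3, H3K4me2 and H3K27ac were lower still, from 0.312-fold to 0.417-fold. Genic regions were not recomputed in this way. H3K4me2 in myoblasts was 0.921-fold (0.761 to 1.06) against 0.540-fold (0.528 to 0.552). The median H3K4me3 was 0.797-fold (0 to 1.09) in myoblasts and 0.767-fold (0.438 to 1.02) in myotubes, and both intervals held the genic medians of 0.851-fold and 0.746-fold. For H3K27me3 the order of the medians differed between the cell types. It was 0.810-fold (0.745 to 0.904) over intergenic and 0.694-fold (0.688 to 0.700) over genic regions in myoblasts, and 0.991-fold (0.880 to 1.10) against 1.22-fold (1.21 to 1.23) in myotubes. The median intergenic region held 1 read each of H3K27me3, H3K4me2 and H3K4me3, and 3 of H3K4me1, in each cell type. At such counts the fold depends on region length, and genic regions were longer. Whether these contrasts are differences in the marks was not tested.

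**Figure D1:**
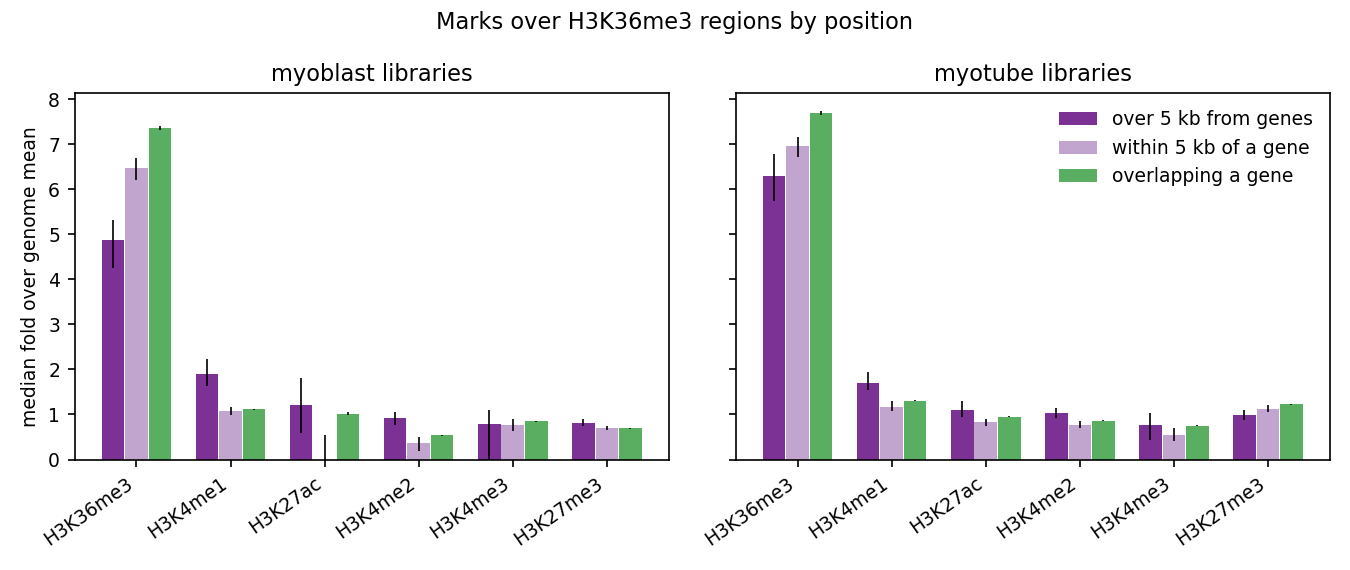
Median fold over the genome mean of 6 histone marks, in the myoblast and myotube libraries, over H3K36me3 regions that lay over 5 kb from any gene (605), within 5 kb of one (1602) or over a gene (42945). Error bars are 95% order-statistic intervals of the median. H3K36me3 chose the regions, and H3K4me1 is the mark with the tallest intergenic bars after it.

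Counting single regions gave a like picture for the enhancer marks. A region was called for a mark where the lower Poisson bound of its reads exceeded the genome mean. H3K4me1 was called in 204 intergenic regions in myoblasts (33.7%, interval 29.96 to 37.6), above the 27.1% of all H3K36me3 regions, and in 190 in myotubes (31.4%, 27.7 to 35.3), near the 30.2% of all. H3K27ac was called in 122 regions in myoblasts (20.2%, 17.0 to 23.6) against 16.8% of all, and in 115 in myotubes (19.01%, 15.96 to 22.4) against 17.4%. H3K4me3 was called in 41 regions in myoblasts (6.78%) against 5.85% of all, and in 49 in myotubes (8.10%) against 8.68%. The shares for H3K4me3, and that for H3K27ac in myotubes, lay near the background, and intergenic regions are shorter than the others and so harder to call.

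The intergenic regions gathered past the 3' ends of genes. They lay a median of 11032 bp from the nearest gene (range 5003 to 575091), and 360 of 605 (59.5%, 55.5 to 63.4) were nearest to a gene's 3' end, whereas 50.9% of all bases over 5 kb from a gene were. Between 5 and 10 kb from a gene there were 200 regions past 3' ends and 71 before 5' ends, or 3.16 and 1.07 regions per Mb of such sequence. From 10 to 20 kb the densities were 1.06 and 0.705 per Mb. From 20 to 50 kb the order was the opposite, with 0.332 per Mb past 3' ends and 0.480 before 5' ends. Of the 1602 regions within 5 kb of a gene, through which runs are joined to genes below, 89.5% lay nearest to a 3' end.

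H3K4me1 over the regions had no single trend with distance. In myoblasts its median past 3' ends was 1.499-fold at 5 to 10 kb, 2.45-fold at 20 to 50 kb and 0.517-fold over 100 kb, the last from 10 regions. Before 5' ends it was 1.86-fold at 5 to 10 kb, 2.95-fold at 20 to 50 kb, 2.01-fold at 50 to 100 kb and 3.15-fold over 100 kb.

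**Figure D2:**
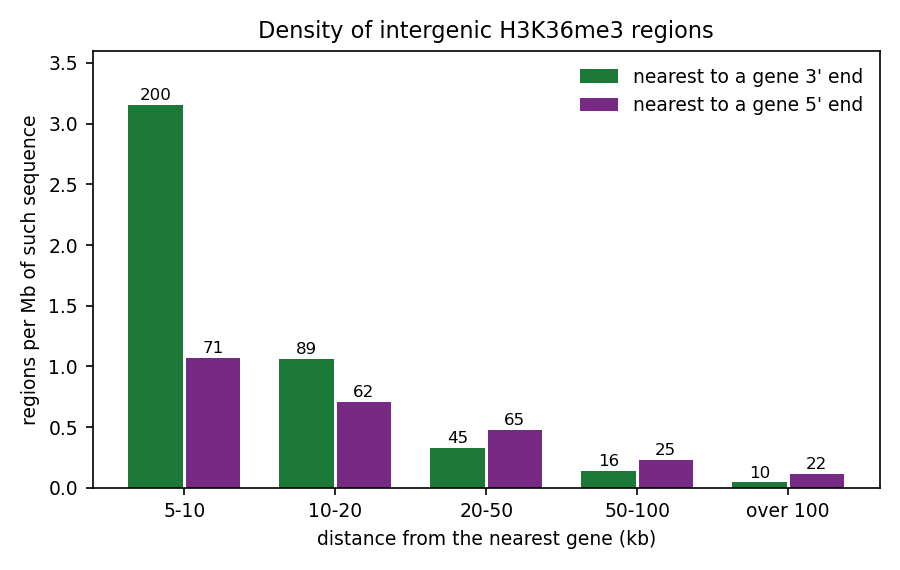
Intergenic H3K36me3 regions per Mb of sequence at each distance (kb) from the nearest gene, for sequence nearest to a gene 3' end and to a 5' end. Numbers over the bars are counts of regions. At 5 to 10 kb the 3' bar (3.16 per Mb) is the taller, and from 20 kb on the 5' bar is.

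Neighbouring intergenic regions with gaps of up to 10 kb and no gene between them were joined into 438 runs. Of these, 349 were single regions and 89 held 2 to 7, and these 89 held 49.3% of the covered bases. The 5 runs with the most covered bases held 14.8%. In 216 runs (49.3%, 44.5 to 54.1) further H3K36me3 regions led within the same gap to a gene, and these are called joined, while 222 runs were isolated. Of the 192 runs joined on 1 side, 160 (83.3%, 77.3 to 88.3) led to a gene's 3' end and 32 to a 5' end. Another 24 were joined on both sides, 13 of them between a pair of 3' ends. Among regions of joined runs 78.1% (73.0 to 82.5) were nearest to a 3' end, and among those of isolated runs 40% (34.4 to 45.8) were, below the 50.9% of bases. Runs were joined through regions close to genes, which lay mostly at 3' ends. This definition sets the contrast in part, so nothing is read from it. Runs joined at a 3' end reached a median of 8119.5 bp past it (interval 7757 to 8812, longest 32566), and runs joined at a 5' end reached 9137.5 bp before it (8566 to 11105, longest 57962).

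An H3K4me3 peak lay within 2 kb of an end in 37 of the 222 isolated runs (16.7%, 12.01 to 22.2), whereas 0.925% of bases over 5 kb from genes lay that close to such a peak. The 2 shares are unlike, since a run has 2 ends to score and the bases include sequence far from any gene. Of these 37 runs, 18 had the peak at exactly 1 end and 19 at both, and 18 of the 19 spanned at most 4 kb, so that the 2 end windows met. Among the 28 isolated runs that spanned over 5 kb, 10 had a peak at an end (35.7%, 18.6 to 55.9) and 9 of the 10 at exactly 1 end. For scale, 147 of 261 annotated lincRNA genes over 5 kb long with H3K36me3 (56.3%, 50.1 to 62.4) had an H3K4me3 peak at their start and 47 (18.0%) at their 3' end. Among the joined runs, 24 of 216 (11.1%, 7.25 to 16.1) had a peak at an end. The peak was present in myotubes alone for 17 isolated runs, in myoblasts alone for 9 and in both for 11, and the myotube H3K4me3 list was the longer, with 17495 peaks against 12243.

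The stretch between Mir31 and Gm12603 on chromosome 4 held 13 intergenic regions in 4 runs, all from the myoblast list alone. Mir31 encodes miR-31, lies on the minus strand, and has these runs upstream of its 5' end. The run nearest to Mir31 (chr4:88561633-88584922, 14607 bp covered) held 422 H3K36me3 reads in myoblasts and 46 in myotubes, or 10.5-fold and 1.87-fold the genome mean. The myotube to myoblast ratio was 0.181 (0.128 to 0.241). Further H3K36me3 joined the run to Mir31. H3K4me3 at its far end, within 1 kb either side, was 32.3-fold in myoblasts and 16.3-fold in myotubes, and at the end near Mir31 it was 0.922-fold and 0.388-fold. The mark pattern thus had H3K4me3 at the end away from Mir31 and H3K36me3 between that end and the miRNA. The peak there (chr4:88577847-88588893) held 368 reads in myoblasts and 197 in myotubes, with a ratio of 0.451 (0.377 to 0.537).

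A second run of 5 regions lay beyond that peak (chr4:88605603-88625504, 8397 bp covered) and was isolated. It held 216 reads in myoblasts and 13 in myotubes, or 9.36-fold and 0.918-fold, and the ratio was 0.105 (0.0514 to 0.171). Its H3K4me3 peak stood at the end toward Mir31 (chr4:88601243-88603925, 76 and 56 reads), so the 2 runs faced away from the H3K4me3 between them. The ratio of that peak was 0.623 (0.431 to 0.887). Another peak of both lists between the 2 runs (chr4:88595409-88597529) went the other way. It held 22 reads in myoblasts and 49 in myotubes, a ratio of 1.83 (1.11 to 3.25). A smaller H3K4me3 peak of the myoblast list (chr4:88605409-88606404) overlapped the end of the run, with 9 reads in myoblasts and 1 in myotubes. The 2 smaller runs farther out held 4 and 19 reads in myoblasts and none in myotubes, where a count of 0 allows up to 3 reads. By gene order, a later RefSeq annotation places 1 gene in this stretch, the lncRNA gene Gm34568, at a distance from the runs that is not known.

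**Figure D3:**
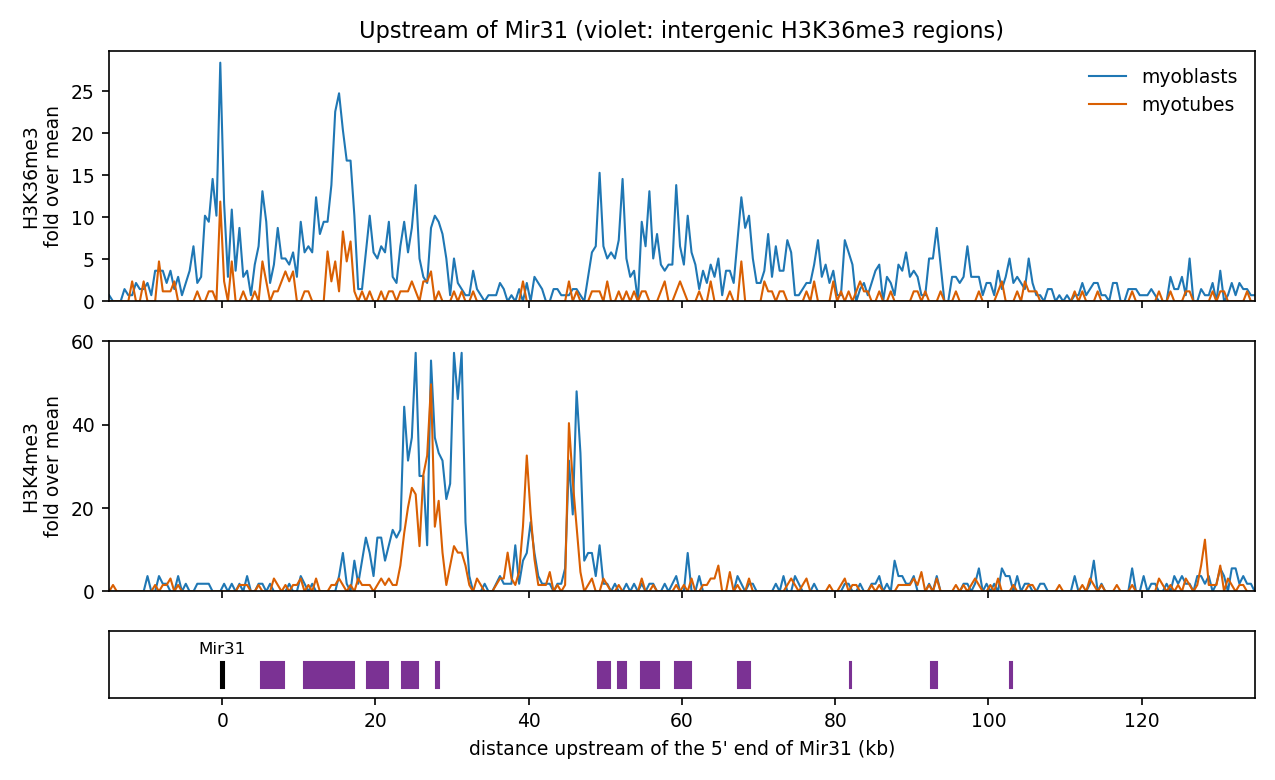
H3K36me3 (top) and H3K4me3 (middle) as fold over the genome mean in 500 bp steps, against distance upstream of the 5' end of Mir31 in kb, for myoblasts and myotubes, with intergenic regions in violet below. Myoblast H3K36me3 fills both sides of the H3K4me3 peaks, and the myotube line stays low over the violet regions.

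The stretch before Mirlet7c-2 on chromosome 15, which with its neighbour Mirlet7b encodes the let-7 miRNAs shown above, held an intergenic region of 6381 bp (chr15:85503877-85510257) that was joined to Mirlet7c-2. It held 272 H3K36me3 reads in myoblasts and 63 in myotubes, or 15.5-fold and 5.86-fold, with a ratio of 0.382 (0.283 to 0.498). H3K4me3 over the same bases was 41.3-fold in myoblasts and 14.6-fold in myotubes, so the region held both marks at high levels. An isolated run of 2 regions lay farther out (chr15:85487750-85493376), with 67 and 32 reads. By gene order, RefSeq places the lncRNA gene D130051D11Rik in this stretch, at a distance from the runs that is not known.

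In all, 28 of the 438 runs had an annotated miRNA gene on at least 1 side, and these lay in 24 gaps between genes. Of these 28 runs 11 were joined and 8 had an H3K4me3 peak at an end, beside 216 (49.3%) and 61 (13.9%) of all 438. How many of all gaps lie beside a miRNA gene was not counted. Upstream of Mir206 a region of 526 bp held 15 H3K36me3 reads in myoblasts and 4 in myotubes, too few for a call. Its H3K4me3 was 8 reads in myoblasts and 33 in myotubes, or 14.0-fold and 48.7-fold, with a ratio of 3.18 (1.57 to 8.70). The long run between Gm13833 and Gm13835 (chr6:31062732-31084603, 11167 bp covered) has Mir29b-1 as its nearest matched neighbour in RefSeq, and held 359 and 165 H3K36me3 reads (ratio 0.752, 0.620 to 0.904). Its H3K4me3 stood in the middle, at 31.8-fold and 26.0-fold, and not at an end.

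The longest run lay between St3gal1, a sialyltransferase gene, and Zfat (chr15:66953208-67003884) and covered 30770 bp in 7 regions. It began 7285 bp before the 5' end of St3gal1, to which further H3K36me3 joined it, and its far end lay 57962 bp from that gene. It held 997 H3K36me3 reads in myoblasts and 376 in myotubes, or 11.8-fold and 7.25-fold, with a ratio of 0.616 (0.545 to 0.693). The H3K4me3 peak past its far end (chr15:67005848-67010876) held 306 reads in myoblasts and 253 in myotubes, or 56.1-fold and 39.0-fold. The window of that peak printed above is centred 5213 bp from the run's end. As upstream of Mir31, H3K4me3 stood at the end away from the gene. By gene order, RefSeq places the lncRNA gene 1700012I11Rik in this gap of 969405 bp, so its distance from the run is not known. Later models of St3gal1 that reach farther upstream were not looked for.

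Among isolated runs with H3K4me3 at exactly 1 end, the next by covered bases lay between U6 and U2 snRNA copies on chromosome 1 (chr1:153090545-153096120). It held 139 and 66 H3K36me3 reads, a ratio of 0.780 (0.569 to 1.05). H3K4me3 at its right end was 2.77-fold in myoblasts and 20.2-fold in myotubes. The run between Sspn, a gene of the dystrophin complex, and Itpr2 (chr6:145947875-145952469) held 73 and 62 H3K36me3 reads (ratio 1.39, 0.971 to 1.97), and its right end had H3K4me3 of 7.38-fold and 22.5-fold. The run between Ralgps2 and 1700057K13Rik held 101 and 54 reads (ratio 0.879, 0.615 to 1.23), and H3K4me3 at its right end was 3.69-fold and 5.82-fold, from 8 and 15 reads. In these 3 runs the interval of the H3K36me3 ratio held 1. The run between Mogat1 and Acsl3 (chr1:78590269-78596405) held 11 and 58 H3K36me3 reads, a ratio of 8.02 (4.47 to 18.2), with H3K4me3 of 1.38-fold and 1.55-fold at its end, from 3 and 4 reads.

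The stretch between Dyrk2, a kinase gene, and Cand1 on chromosome 10 is named here after its values were seen. It held 12 regions in 3 isolated runs of 4356, 4541 and 2485 covered bp, all from the myotube list alone, of which the nearest lay 32082 bp and the farthest 114578 bp before the 5' end of Dyrk2. The 3 runs held 10, 11 and 21 H3K36me3 reads in myoblasts and 53, 76 and 35 in myotubes. Most of the 12 regions had under 20 reads in both libraries together, and 2 were at least 2-fold higher in myotubes by the rule for calls. An H3K4me3 peak of the myotube list (chr10:118435421-118439345) stood 3687 bp beyond the last run, outside the 2 kb window. It held 7 H3K4me3 reads in myoblasts and 163 in myotubes, or 1.65-fold and 32.2-fold, with a ratio of 17.2 (9.29 to 49.5). Weaker H3K4me3 peaks of the myotube list lay nearer. That at chr10:118428609-118429220, with 1 read in myoblasts and 6 in myotubes, overlapped a run. Others lay 2195 and 3006 bp from the nearest run, with 7 myotube reads each. RefSeq lists 8 genes between Dyrk2 and Cand1, 7 of them lncRNA genes and 1 a pseudogene.

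**Figure D4:**
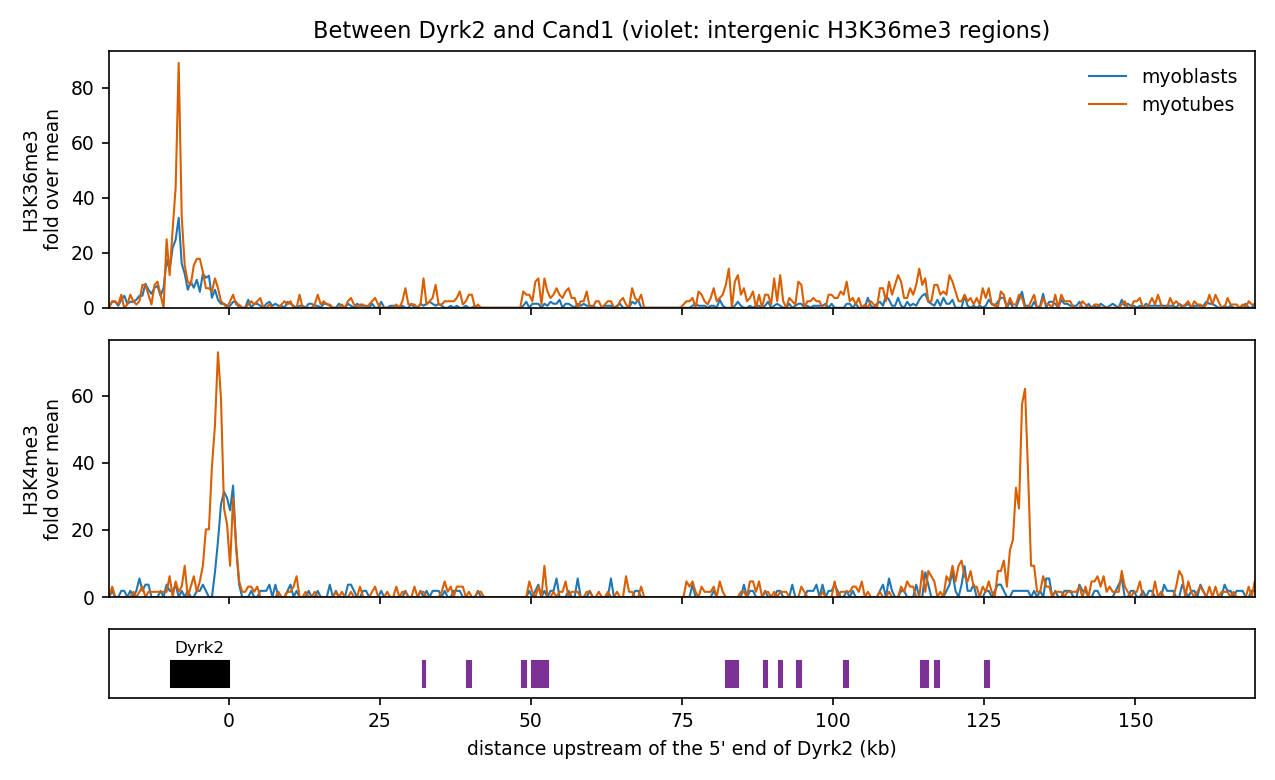
H3K36me3 (top) and H3K4me3 (middle) as fold over the genome mean in 500 bp steps, against distance upstream of the 5' end of Dyrk2 in kb, for myoblasts and myotubes, with intergenic regions in violet below. The violet regions end short of the myotube H3K4me3 peak that is centred 131.4 kb from Dyrk2.

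Of the 188 intergenic regions with at least 20 H3K36me3 reads in both libraries together, 53 (28.2%, 21.9 to 35.2) were at least 2-fold higher in myotubes, where 17.5% of all H3K36me3 regions so tested were. At least 2-fold lower were 36 (19.1%, 13.8 to 25.5), against 9.98% of all. Both shares exceeded the background, and since the peak lists chose the regions and the calls follow those lists, nothing is read from this. Of the 53 higher regions, 50 were from the myotube list alone, and of the 36 lower ones 34 were from the myoblast list alone. Scaled by reads in windows without a peak the split was 69 higher and 32 lower, and scaled by reads in genic H3K36me3 regions it was 42 and 45, since these scalings move every ratio by 0.15 and -0.25 on the log2 scale.

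**Figure D5:**
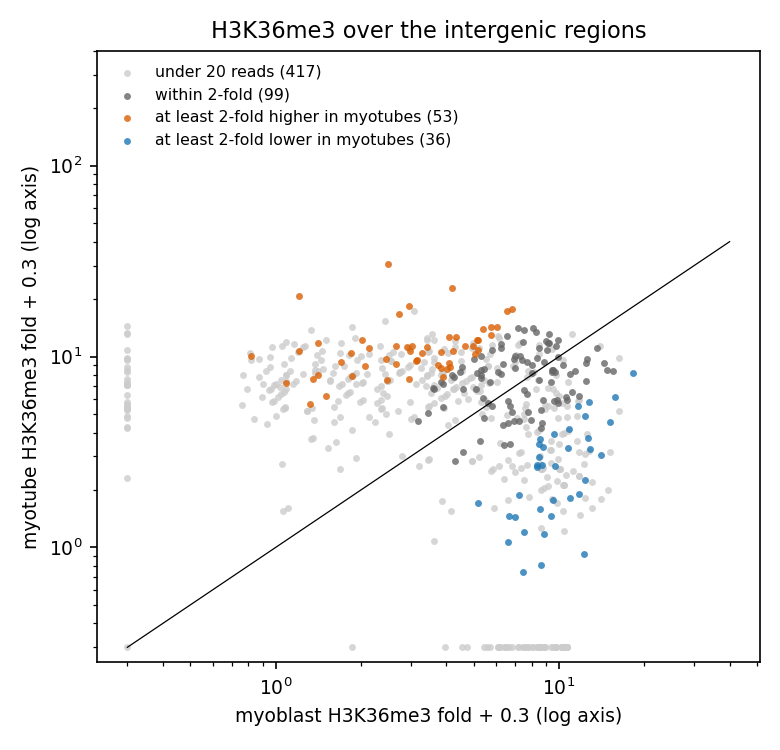
H3K36me3 fold over the genome mean of the 605 intergenic regions in myotubes against myoblasts, both on log axes after 0.3 was added, with the line of equal fold. Coloured points are the 53 regions at least 2-fold higher and the 36 at least 2-fold lower in myotubes, and pale grey points are the 417 with under 20 reads.

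The higher regions were scattered over 48 gaps between genes, at most 3 in a gap, and the lower ones over 24 gaps, of which Mir31 to Gm12603 alone held 9. The 5 largest falls among regions with at least 50 reads outside chromosome 18 were all in that stretch, with ratios from 0.0906 to 0.188. The largest rises among the same regions were in different gaps. The first, between Hk2, which encodes the muscle hexokinase, and Sema4f (chr6:82789868-82791465), had 4 H3K36me3 reads in myoblasts and 55 in myotubes, a ratio of 18.3 (8.28 to 85.2). H3K4me3 over it was 1.15-fold and 1.46-fold, and no H3K4me3 peak lay at an end of its run. Others were a region of the Mogat1 to Acsl3 run (ratio 7.97, 4.07 to 21.6) and regions between Maf1 and Fam203a (6.38, 3.38 to 15.3) and between Gm17721 and Azin1 (3.26, 1.96 to 5.83). Over the last, H3K4me3 was 1.26-fold in myoblasts and 7.82-fold in myotubes and H3K4me1 was 5.48-fold and 15.5-fold, so all 3 marks were higher in the myotube library.

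Over the 53 higher regions summed, the H3K4me3 ratio was 1.39 (1.07 to 1.83) and the H3K4me1 ratio 1.09 (0.974 to 1.23). Over the 36 lower regions the H3K4me3 ratio was 0.484 (0.418 to 0.560), that of H3K4me2 0.514 (0.469 to 0.563) and that of H3K27ac 0.768 (0.685 to 0.863). The region before Mirlet7c-2 held 286 of the 516 myoblast H3K4me3 reads of the 36, and 858 of the 1294 of H3K4me2. The ratios without that region alone were not computed. Without the 9 regions at Mir31 the ratios were 0.492 (0.414 to 0.584), 0.480 (0.432 to 0.532) and 0.836 (0.738 to 0.9497) in the same order. Without the Mirlet7c-2 region as well, the other 26 had ratios of 0.973 (0.718 to 1.32) for H3K4me3, 0.907 (0.744 to 1.11) for H3K4me2 and 1.24 (1.03 to 1.51) for H3K27ac. H3K4me1 kept its direction, at 0.752 (0.682 to 0.828) over all 36 and 0.694 (0.610 to 0.788) over the 26. Over the 99 regions called neither higher nor lower it was 0.805 (0.757 to 0.857), so a ratio below 1 was not particular to the lower regions.

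Runs and the genes beside them were compared where both had enough reads. Across 73 runs joined at a 3' end, the log2 ratio of the run and of that gene's H3K36me3 had a Pearson r of 0.471, and across 50 isolated runs and their nearest gene it was 0.421. These are correlations over sites that share both libraries. Across 10 runs joined at a 5' end it was 0.673. The run and the gene had log2 ratios of the same sign in 35 of 73 runs joined at a 3' end, 9 of 10 at a 5' end and 30 of 50 isolated runs.

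The regions of highest H3K36me3 were sought outside chromosome 18, among those with at least 20 reads in the library. In myoblasts they were that between E130006D01Rik and Miat (17.9-fold, 37 reads), the region before Mirlet7c-2 and that between Pabpc6 and Qk (15.2-fold, 46 reads). The first also had H3K4me1 of 49.4-fold and H3K27ac of 42.2-fold in myoblasts. In myotubes the highest lay between Zfp326 and a U6 copy (30.3-fold, 34 reads), between Ube2g2 and Gm10272 (22.6-fold, 25 reads) and in the Hk2 to Sema4f region (20.4-fold). The regions just inside the 5 kb limit were those near Snapc1 (5003 bp), Enah (5019 bp) and Fam203a (5020 bp), with 3.58-fold, 1.63-fold and 2.65-fold H3K36me3 in myoblasts and 8.03-fold, 9.31-fold and 18.2-fold in myotubes. Just outside it were regions near Gm13833 (4998 bp), Lsm3 (4986 bp) and Acbd6 (4961 bp), with 12.3-fold, 8.66-fold and 3.91-fold in myoblasts and 4.69-fold, 0-fold and 10.6-fold in myotubes.

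Annotated noncoding genes were measured over whole gene bodies and were not chosen by peaks. Their levels are therefore not directly comparable with those of the intergenic regions. Of 14 such genes listed for this comparison, 13 were annotated, with median H3K36me3 of 4.03-fold in myoblasts and 2.53-fold in myotubes. H3K36me3 over their bodies was at least 2-fold lower in myotubes for 6 and higher for none. Of all H3K36me3 regions tested, 9.98% were so lower and 17.5% higher. H3K4me3 at the start of these genes was at least 2-fold lower for none and higher for 1. Malat1, a nuclear lncRNA, had 23.1-fold in myoblasts and 7.90-fold in myotubes, and Neat1, which builds paraspeckles, 13.2-fold and 5.60-fold. Meg3, an imprinted lncRNA, was below the genome mean in both, at 0.355-fold and 0.637-fold.

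A later RefSeq annotation was used for gene order only, because its build differs. Gaps were taken between mm9 genes that matched a RefSeq gene. In gaps of 100 to 300 kb it held a gene with no match in the mm9 annotation in 86.2% of those with an intergenic run (77.2 to 92.7) and in 78.6% of those without (76.8 to 80.3). In gaps of 30 to 100 kb the shares were 51.3% (43.2 to 59.3) and 49.5% (48.1 to 50.9). At 10 to 30 kb they were 19.4% (12.1 to 28.6) and 19.1%, and over 300 kb 97.8% (88.5 to 99.9) and 93.5%. In each of these classes the interval with a run held the share without.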

How the data were processed

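Reads and peaks of 12 ChIP-seq libraries (6 marks, 2 cell types) were used. The deposited read files list 34 bp reads for which the authors used Mosaik 1.0.1384 and the mm9 genome, keeping unique alignments, and each line is a count of 1. What the authors merged and whether duplicates were removed is not given in the sources used here. The peak lists hold the score that MACS gave each peak, as deposited, at least 50, with settings not given. The names of the myoblast H3K27me3 and H3K27ac peak lists disagree with the labels, so those marks were measured from reads alone.

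Reads on chromosomes 1 to 19 and X were extended to 150 bp and counted by their midpoints. Fold is the count over the length times the library's mean per base. Ratios of myotubes to myoblasts add 1 read to each library and scale by total reads, so ratios from few reads lean toward the ratio of depths. A call needs a 2-fold difference and 20 reads, and named rises and falls 50. Intervals are exact Poisson, conditional binomial, Clopper-Pearson or order-statistic intervals at 95%, and cover counting error only. Genes were those of GENCODE M1 (Ensembl release 65). RefSeq genes were matched by Ensembl identifier, or else by symbol or synonym (26415 of 34653 mm9 genes), and miRNA sequences by miRNA name (GRCm38.p6).

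Named runs and regions were the 5 runs with the most covered bases, the 5 such isolated runs with H3K4me3 at exactly 1 end, the 3 regions of highest H3K36me3 in each cell type, the 5 largest rises and falls and the regions nearest the 5 kb limit. None was taken from chromosome 18, and the regions of highest H3K36me3 had at least 20 reads in that library. Of the rises, 1 is not reported here. The regions, lists and rules were chosen with earlier results of these data known, and the Dyrk2 to Cand1 stretch, the Mir206 region and the farther let-7 run were picked with their values in view. The steps were tested on simulated data. The software was Python 3.11.15, pysam 0.24.0, matplotlib 3.10.9, scipy 1.17.1, pandas 2.3.3 and numpy 2.4.6. The alternatives are given with the closing values.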

Additional observations from a re-analysis of the deposited data

How the results depend on the processing

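No paired analysis was possible because each mark has 1 library per cell type. Of 94 values recomputed under another setting for the main results, 56 kept within their interval or within 1.5 times, and 38 moved. The 56 include the medians of every library without regions at least 2-fold above the genome mean in all 12 libraries. No region was of that kind, so those medians could not change and say nothing of stability. The cause was not tested unless the setting itself changes what is counted.

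The number of intergenic regions was 1147 over 2 kb from genes, 334 over 10 kb, and 134 with a MACS score of at least 100. The share nearest to a 3' end was 71.6%, 47.9% and 55.2% under the same settings, so it falls as the regions start farther from genes. Runs joined to a gene were 28.6% with gaps of up to 5 kb, 68.5% with gaps of up to 25 kb and 38.1% with the higher score. Isolated runs with H3K4me3 at an end were 11.7% within 1 kb, 28.8% within 5 kb and 10.8% with H3K4me3 peaks scoring at least 100.

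Regions 2-fold higher and lower in myotubes were 86 and 56 with protein-coding genes only, and 8 and 11 with at least 50 reads. With 5 reads added, 22 were lower. Under the higher peak score the myoblast medians were 8.96-fold for H3K36me3, 1.43 for H3K4me3, 1.24 for H3K4me2, 2.05 for H3K27ac and 2.44 for H3K4me1. The myotube medians were 8.02, 1.07, 1.27, 1.46 and 2.24 in the same order. Against the surrounding 200 kb the myoblast medians were 1.997-fold for H3K36me3, 0.329 for H3K4me2, 0.318 for H3K27ac and 0.872 for H3K4me1. Those of myotubes were 2.80 for H3K36me3, 0.323 for H3K4me3, 0.417 for H3K4me2, 0.378 for H3K27ac and 0.777 for H3K4me1. With reads extended to 250 bp, H3K36me3 was 4.18-fold and 5.52-fold. The H3K27ac ratio over the regions lower in myotubes was 0.768 over all, 0.836 without the Mir31 stretch and 1.24 without the Mirlet7c-2 region as well, alternatives chosen after seeing the data. The largest rises and falls kept their direction and their side of 2-fold under both other scalings. With under 20 reads in 417 of 605 regions, depth limits what can be called, and differences in the other marks over single regions were mostly not detectable.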
